A study of Mus musculus with 2 samples.

Results

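B cells make immunoglobulin, the antibody protein, first as a receptor on their surface, and after activation some become plasma cells that secrete it. The receptor signals through Cd79a and Cd79b, and Ms4a1 encodes CD20, a surface protein of mature B cells. B cells of the liver are mostly recirculating cells of blood and lymphoid tissue, which meet antigen and present it to T cells on MHC class II.

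B cells were taken from 2 libraries of liver cells, 1 library per mouse. Both mice bore liver tumours with mutant β-catenin and carried Glul f/f, so that Cre can remove this gene of glutamine synthetase. Virus was given 7 weeks before collection, AAV8-GFP in the control and AAV8-Cre in the GS-KO animal. AAV8 is known to reach mainly hepatocytes, and the promoter that drove Cre is not given in the sources used here. Cells had been enriched for F4/80, a macrophage protein, and depleted of dead cells before droplet 3′ sequencing (the labels speak both of cells and of single nuclei), so B cells were a population that the enrichment did not select. With 1 mouse and 1 library per group there was no replicate, no test of a group difference was possible, and virus, mouse and preparation cannot be told apart.

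Barcodes with at least 500 UMIs, 200 genes and at most 20% mitochondrial UMIs were kept. A kept barcode was counted as a B cell when it held at least 3 UMIs (molecules counted once) of Cd79a, Cd79b and Ms4a1 together. It had to hold at most 1 UMI of Cd3d, Cd3e and Cd3g, under 0.5% C1qa, C1qb and C1qc, and under 2% of 7 hepatocyte transcripts. By this rule 463 of 3275 kept control barcodes were B cells (14.1%, 95% Clopper-Pearson interval 13.0 to 15.4), and 120 of 662 GS-KO barcodes (18.1%, 15.3 to 21.3). Before the other conditions 539 control and 125 GS-KO barcodes passed the B cell genes. The T cell genes then left out 7 and 2, the C1q genes 63 and 3, and the hepatocyte genes 6 and 0. At the minimum of 3 UMIs stood 1 cell in each library, and 10 control and 0 GS-KO barcodes lay just below it, while the median B cell held 26 and 22 such UMIs. Among the 1193 control and 503 GS-KO barcodes that met the C1q and hepatocyte limits, B cells made up 38.8% and 23.9%, so the order of the shares depended on the denominator.

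Depth per B cell was close in the 2 libraries. The median was 3675 UMIs in control cells (range 654 to 15960) and 3875 in GS-KO cells (837 to 40473), with 1336 and 1240 genes and 4.23% and 3.32% mitochondrial UMIs. The B cell sums held 1806064 and 517588 UMIs. The whole libraries held 5074 and 1366 barcodes, where the labels state at least 7500 cells at 20000 reads per cell. No barcode was shared between the B cells of the libraries, and 1 was shared among all barcodes. Values below are counts per 1e+06 UMIs (CPM) of the summed B cells with 95% counting intervals, and ratios are GS-KO over control.

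Markers that the rule did not use matched the label. Ighd, the IgD heavy chain, had a UMI in 96.1% of control and 95% of GS-KO B cells, and in 1.81% and 3.45% of T cells of the same libraries, a class that should lack it. Ebf1, a transcription factor that specifies B cells, was found in 98.3% and 97.5% of B cells and in 0.362% and 0 of T cells. Its level was 1588 CPM in control and 1810.3 in GS-KO cells, a ratio of 1.14 (1.06 to 1.23). Trac, the T cell receptor gene, had 0 UMIs in all 583 B cells. The T cells were 276 control and 87 GS-KO barcodes chosen by the reverse rule, and the GS-KO T cells carried 60474 CPM of monocyte and neutrophil genes against 1864 in the control.

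Most of the B cells carried IgM and IgD RNA, the classes that B cells make before they switch. Ighm and Ighd were found together in 445 of 463 control (96.1%) and 114 of 120 GS-KO B cells (95%), and a switched class was the leading heavy chain in 3 and 5 cells. Cd93, a marker of immature cells, was found in 2 and 5 cells. Other markers of transitional or immature cells differed. Vpreb3 was found in 62.0% and 57.5% of B cells, against 0.725% and 0 of T cells, and Cd24a in 33.3% and 21.7%, against 1.45% and 11.5%. Rag1 was found in 1 and 0 B cells, and Rag2, Igll1, Vpreb1 and Dntt in 0 of either library. Of marginal zone genes, S1pr3 was found in 0 cells of either library, which by a floor of 3 counts allows a UMI in up to 0.648% of control and 2.5% of GS-KO B cells. Cr2, the complement receptor CD21, was found in 25.5% and 19.2% of B cells, against 0.362% and 0 of T cells. Cd1d1 was found in 10.8% of B cells in both libraries and Dtx1 in 7.99% and 9.17%, with 15.6% and 10.3% of T cells for Cd1d1 and 26.1% and 5.75% for Dtx1. Mzb1 was found in 83.4% and 72.5% of B cells, against 0 and 1.15% of T cells. Plac8 was found in 49.0% and 35.8%, against 11.96% and 5.75%. Cd9 was found in 4.1% and 1.67% of B cells, against 26.8% and 36.8% of T cells, and Asb2 in 1 and 0 B cells. The marginal zone genes thus differed among themselves. Of B-1 genes, Cd5 was found in 3 and 1 cells and Bhlhe41 in 11 and 8 cells, 2.38% and 6.67% of B cells. Vim, also on the B-1 list, was found in 47.7% and 40% of B cells and in 56.2% and 58.6% of T cells. Fcer2a, the CD23 receptor of follicular cells, was found in 67.6% and 54.2% of B cells, and after thinning to 1000 UMIs per cell in 33.5% and 24.4%.

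Light chain use did not separate the cells cleanly. Igkc, the kappa constant region, had a median of 51 UMIs per control and 43 per GS-KO cell. The lambda genes Iglc1, Iglc2 and Iglc3 together had a median of 12 and 10, and Iglc2 alone was found in 97.2% and 95% of B cells. T cells held Iglc2 at 0.522 and 0 CPM and Igkc at 16.2 and 26.4 CPM, where B cells held Iglc2 at 1764 and 1229 CPM. With at least 80% of light chain UMIs asked for 1 chain, 52.3% of control (47.6 to 56.9) and 54.2% of GS-KO cells (44.8 to 63.3) were called kappa, and 46.7% and 42.5% had neither chain at that share. The median lambda share was 19.5% and 17.8%, next to the 20% limit, so the call is a range and not a type. Lambda exceeded kappa in 21 control (4.54%) and 6 GS-KO cells (5%). Iglc2 and Iglc3 are near-identical genes, and reads of one may be counted to the other. A variable gene could be assigned in few cells, 19 control and 6 GS-KO for the light chain, and the leading one, Igkv6-25, was held by 5 control cells.

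Plasma cells secrete antibody and fill with immunoglobulin RNA. There were 2 in each library with at least 30% immunoglobulin UMIs, which is 0.432% of the control B cells (0.0524 to 1.55) and 1.67% of those in the GS-KO library (0.202 to 5.89). The cell next in order stood at 7.95% (control) and 4.11% (GS-KO), so nothing lay between. The control cells held 15960 UMIs with Igha leading and 6575 UMIs with Ighg1 leading. The GS-KO cells held 40473 UMIs with 4586 of Ighg1, and 2212 UMIs with 425 of Igha. The largest alone held 7.82% of all GS-KO B cell UMIs, 71.5% of its own being immunoglobulin. All 4 cells had UMIs of Jchain, which joins antibody chains into polymers, and of Mzb1, an endoplasmic reticulum helper of secretion, while Pax5 and Ighm were at 0. Among all B cells Jchain was found in 4 control and 6 GS-KO cells, and Ighm in 98.7% and 96.7%. Mzb1 was found in 83.4% and 72.5% and Pax5 in 52.9% and 47.5%, so a Mzb1 UMI or a lack of Pax5 does not set these cells apart.

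**Figure D1:**
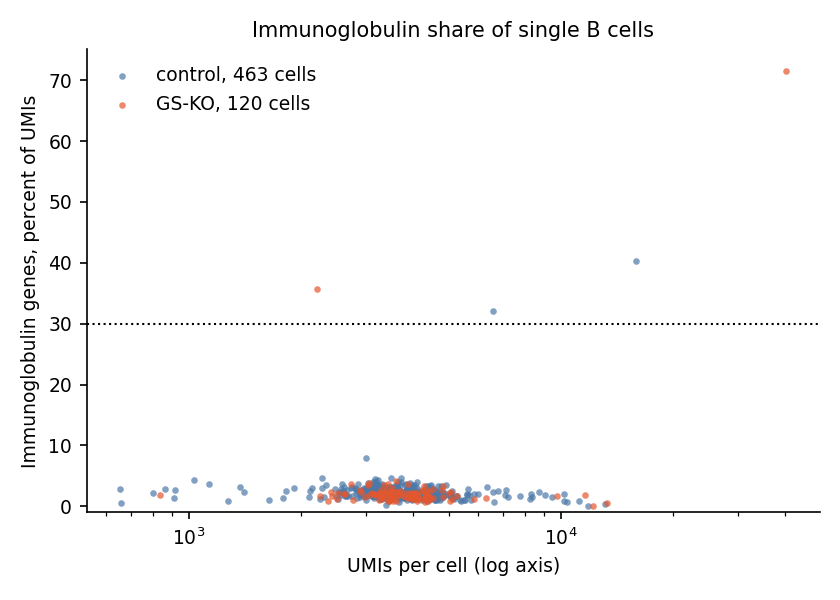
Immunoglobulin gene share of UMIs (vertical axis, percent) against UMIs per cell (horizontal, log axis) for 463 control and 120 GS-KO B cells, 1 point per cell; the dotted line marks 30%. The 4 cells above the line stand apart, and the largest, with 40473 UMIs, is from the GS-KO library.

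That 1 cell carried high ratios outside the immunoglobulin genes too. Slpi, a secreted inhibitor of neutrophil proteases, stood at 11.6 CPM in control and 2604 CPM in GS-KO cells, with 98.0% of the GS-KO UMIs in that cell. Jchain stood at 404 and 3172 CPM with 96.9% there, and its ratio of 7.85 became 1.85 with the Jchain UMIs of the highest cell of each library left out and the totals kept. The plasma cell list had 5 of 11 measured genes at least 1.5-fold higher, against 6.8% of all genes, and 1 lower, against 25.5%. Without the 4 plasma cells the Slpi log2 ratio was 3.24 in place of 7.76.

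Across all genes the comparison was tilted toward lower values in the GS-KO library. Of 7284 genes with at least 20 UMIs, 495 (6.8%) were at least 1.5-fold higher and 1858 (25.5%) at least 1.5-fold lower, and the median log2 ratio was -0.19. These shares include counting noise of genes with few UMIs. Centred on that median, the counts became 889 (12.2%) and 1271 (17.4%). At 50 UMIs and 2-fold, 52 of 4586 genes (1.13%) were higher and 310 (6.76%) lower, and in T cells of the same libraries 3.16% and 9.38% of 4615 genes. The counts of list members are read against 6.8% and 25.5%, and those after centring against 12.2% and 17.4%, unless another share is given.

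**Figure D2:**
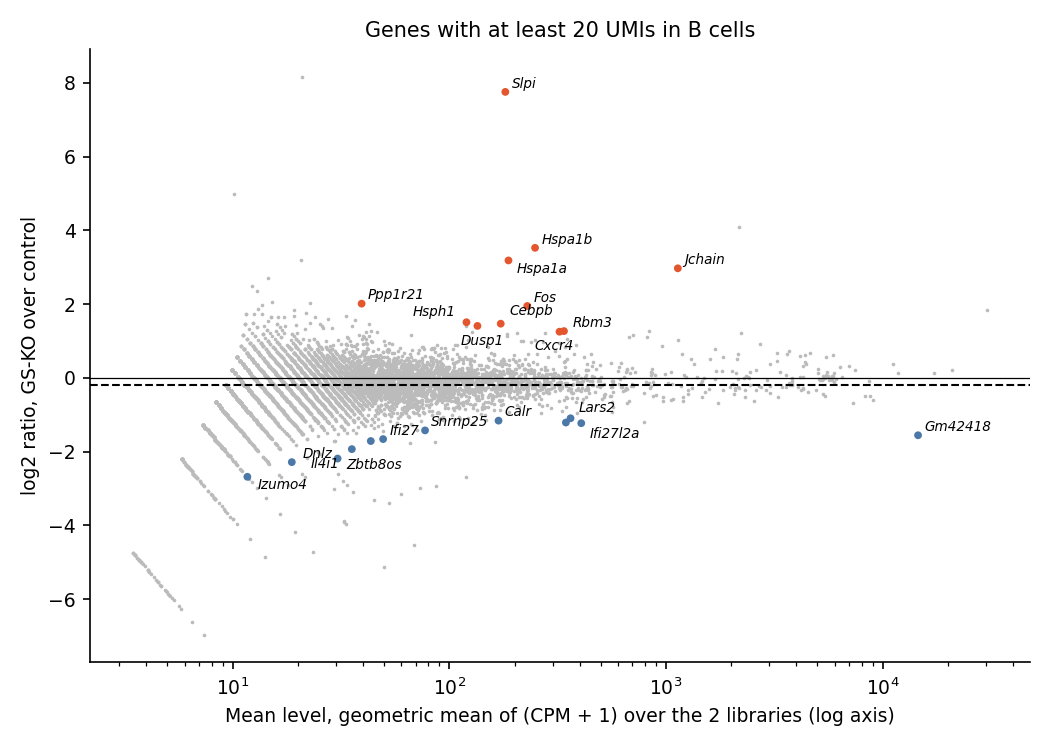
Log2 of the CPM ratio, GS-KO to control (vertical axis), against the mean level (horizontal, geometric mean of CPM + 1, log axis) for 7284 genes with at least 20 UMIs in B cells; orange (higher) and blue (lower) points are genes named by their size of difference in the text. The dashed line is the median of -0.19, and Hspa1a and Hspa1b stand above all labelled genes but Slpi.

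Heat shock chaperones fold proteins and are induced when proteins unfold, through the factor Hsf1 binding heat shock elements, repeats of nGAAn in alternate directions. Of 17 measured members 15 were at least 1.5-fold higher in GS-KO B cells and 0 lower, against 6.8% of all genes, with a median log2 ratio of 0.87. All 17 lay above 1 in the sum over all B cells, plasma cells included, and after centring 17 of 17 passed 1.5-fold. Earlier results of these data were known when the list was chosen, so its direction is a description. The summed level was 6382 CPM in control and 12452 CPM in GS-KO cells.

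Sequence upstream of the members bears on the group, since it can be searched for the heat shock element. In RefSeq promoters of GRCm38.p6, GAANNTTC, which reads the same on both strands, was searched in the 150 bases before the start site. It was present in 3.95% of 32851 promoters and in 6 of 15 heat shock genes with an entry. A gene counted when any of its promoter entries had a match, so the share of promoters and that of genes are unlike units. The 4 stretches shown are from members with high ratios or high levels, 5′ to 3′ on the gene's strand with the match in capitals, for Hspa1b (chr17:34959239-34959388, minus), Hspa1a (chr17:34972157-34972306, minus), Dnaja1 (chr4:40722318-40722467, plus) and Hspe1 (chr1:55087998-55088147, plus).
Hspa1b: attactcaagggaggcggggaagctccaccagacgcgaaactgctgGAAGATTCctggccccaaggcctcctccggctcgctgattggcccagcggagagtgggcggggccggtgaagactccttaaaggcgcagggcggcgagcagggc
Hspa1a: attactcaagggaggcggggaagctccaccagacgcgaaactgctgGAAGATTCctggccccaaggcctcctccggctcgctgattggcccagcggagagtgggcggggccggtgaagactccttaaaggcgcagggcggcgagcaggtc
Dnaja1: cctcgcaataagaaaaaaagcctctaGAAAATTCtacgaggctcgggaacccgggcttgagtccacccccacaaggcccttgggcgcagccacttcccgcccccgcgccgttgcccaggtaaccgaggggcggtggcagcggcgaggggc
Hspe1: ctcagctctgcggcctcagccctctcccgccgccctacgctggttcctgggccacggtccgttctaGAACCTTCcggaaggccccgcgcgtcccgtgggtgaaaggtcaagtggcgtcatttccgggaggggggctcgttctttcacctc
The match began 104 bases before the start in Hspa1b and Hspa1a, whose stretches were the same at 149 of 150 bases, 124 before in Dnaja1 and 84 before in Hspe1. All 6 measured genes with a match were at least 2-fold higher (ratios 2.03 to 11.6), against 2 of the 8 measured genes whose promoter had none (1.38 to 2.86). Of all genes with at least 50 UMIs 1.13% were 2-fold higher, a minimum that Hspb1 and Hspa4l did not reach. At 1.5-fold, the cut used for the lists, the counts were 6 of 6 and 6 of 8, against 6.8% of all genes. The 3 measured genes with no promoter entry had 0 at 2-fold and 3 at 1.5-fold. Of the 6 with a match, Hspb1, a small heat shock protein, rested on 1 GS-KO cell with 83.3% of its UMIs there. The 6 are not independent cases, since Hspa1b and Hspa1a are near-identical copies. The matches of the neighbours Hspd1 (GAAGGTTC) and Hspe1 (GAACCTTC) are the same letters read on opposite strands, and may be 1 site. A match is a string of letters in this window and no measure of binding.

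The inducible HSP70 genes were highest in ratio. Hspa1b (chromosome 17, 34956436 to 34959238, minus strand) was at 72.5 CPM in control (60.6 to 86.1) and 840.4 CPM in GS-KO B cells (763 to 923), a ratio of 11.6 (9.51 to 14.2). It was detected in 12.3% and 56.7% of cells, and the highest GS-KO cell held 6.90% of its UMIs, so the level was spread over many cells. Hspa1a (chromosome 17, 34969190 to 34972156, minus strand) was at 61.5 and 562 CPM, a ratio of 9.15 (7.33 to 11.5). The pair are near-identical copies, and reads can be assigned to either.

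Chaperones with steady expression differed less. Hspa8, the constitutive HSP70, was at 1278 and 2197 CPM (ratio 1.72), and Hsp90ab1 at 1725 and 2678 (ratio 1.55). The co-chaperone Dnaja1 was at 793 and 1621 CPM (ratio 2.04, 1.87 to 2.23), and Dnajb1 at 121 and 276 (ratio 2.28). The mitochondrial pair Hspd1 and Hspe1, neighbours that face away from each other, had ratios of 2.03 (1.68 to 2.44) and 2.15 (1.93 to 2.41). Hsph1, an exchange factor for HSP70, had a ratio of 2.86 (2.18 to 3.73). The endoplasmic reticulum chaperones Hspa5 and Hsp90b1 had the lowest ratios, 1.47 and 1.38, and 34.6% and 36.1% of their GS-KO UMIs were in 1 cell. Of the 208 GS-KO UMIs of Hsp90b1, 75 and 28 were in the 2 plasma cells, against 31 and 32 of 526 in the control ones. The Hsp90b1 ratio above 1 thus rests on plasma cells. Without cells of at least 30% immunoglobulin UMIs, 15 of 17 members were at least 1.5-fold higher.

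**Figure D3:**
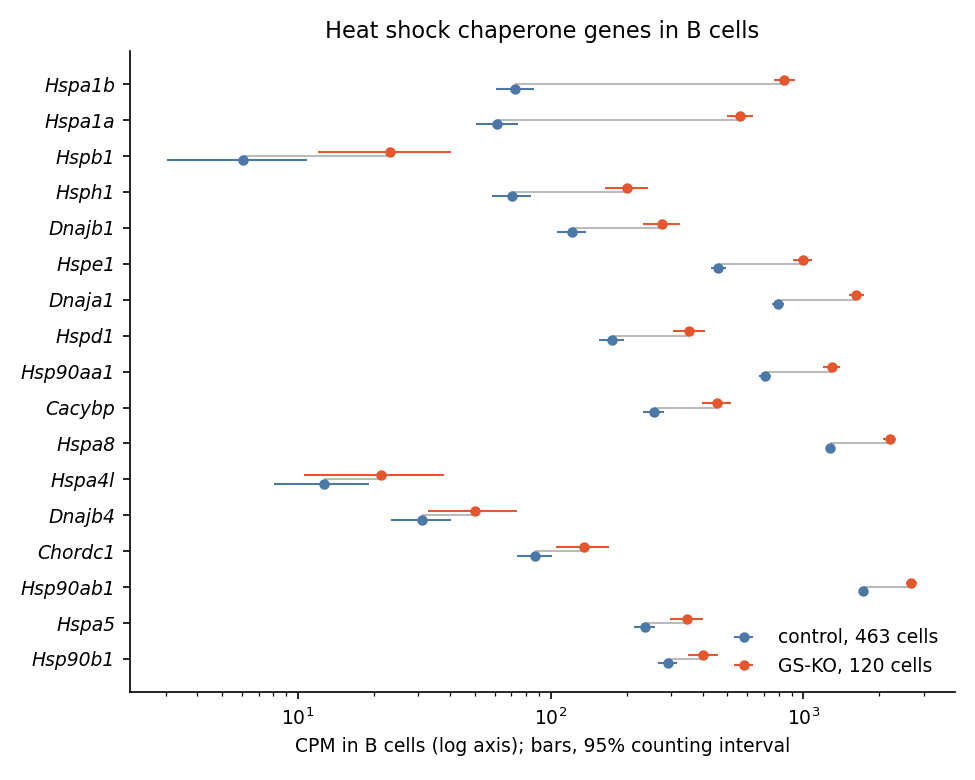
CPM in the summed B cells (horizontal, log axis) for the 17 measured heat shock chaperone genes, control in blue and GS-KO in orange, with 95% counting intervals as bars; no replicate spread is shown since each group is 1 mouse. Every GS-KO point lies to the right, from a ratio of 1.38 for Hsp90b1 to 11.6 for Hspa1b. Plasma cells are included, and the Hsp90b1 difference rests on them.

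The difference was seen in single cells as well. The list took a median of 0.593% of a control cell's UMIs (0.109 to 2.23) and 1.28% of a GS-KO cell's (0.182 to 2.65). The ranges overlapped, and 91.7% of GS-KO cells lay above the control median. Cells of 1 mouse are not replicates of the condition. In T cells of the same libraries 6 of 16 members were at least 1.5-fold higher, against 9.72% of 7355 genes, with Hspa1b at 32.4 and 295 CPM and Hspa1a at 21.9 and 231.

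**Figure D4:**
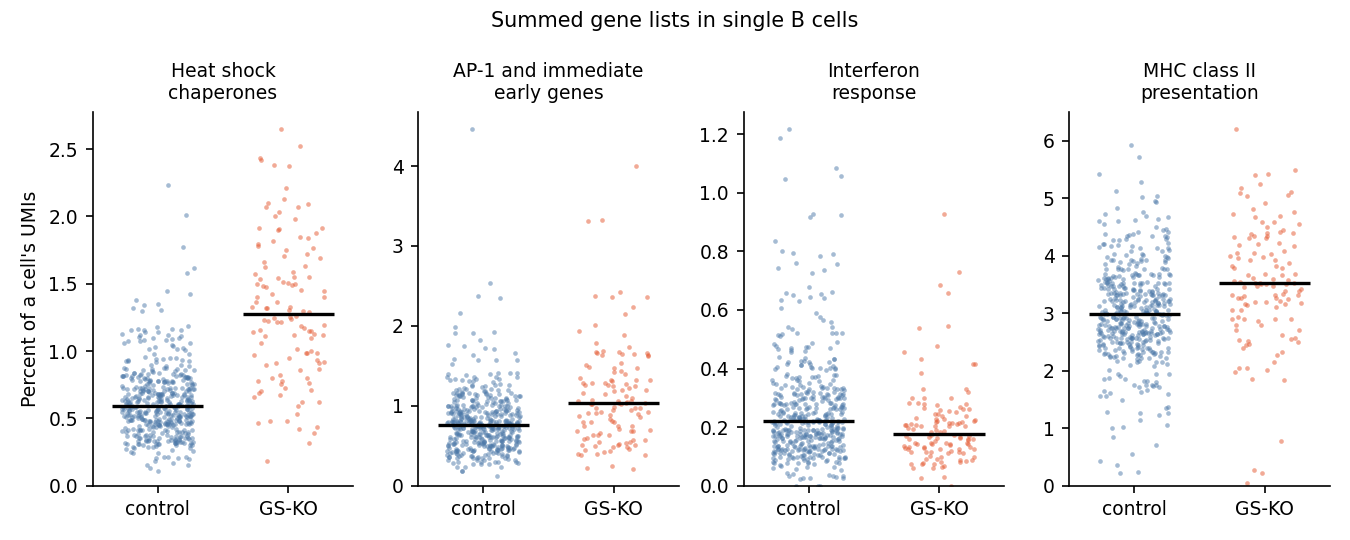
Percent of each B cell's UMIs (vertical axes, different scales) from 4 gene lists, 1 point per cell, with black lines at the medians. The heat shock median is 0.593% (control) and 1.28% (GS-KO), and the interferon median 0.220% and 0.178%.

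AP-1 and immediate early genes, transcription factors and brakes that respond within minutes to receptor signals or stress, were higher in part. Of 22 measured members 10 were at least 1.5-fold higher and 1 lower, with a median log2 ratio of 0.50. Fos, an AP-1 subunit, was at 116 and 448 CPM (ratio 3.87, 3.20 to 4.69), Jun at 243 and 500.4 and Junb at 557 and 1194. Dusp1, a phosphatase that switches off MAP kinases, had a ratio of 2.66 (2.07 to 3.43), and Nr4a1, a nuclear receptor induced by antigen, 3.02 (1.82 to 4.98). Klf2, a factor of quiescent lymphocytes, was at 1692 and 1656 CPM, and Fosb at 46.5 and 30.9. T cells held Fos at 90.9 and 402 CPM and Junb at 413 and 989, beside the monocyte and neutrophil RNA given above, whose part in the T cell values was not tested. Without the 18 cells with myeloid RNA the Fos log2 ratio was 2.44 in place of 1.95.

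Early activation genes had 9 of 18 measured members at least 1.5-fold higher and 2 lower, with a median log2 ratio of 0.56. Several members had few UMIs, and at 1000 UMIs per cell 3 of 9 measured genes were higher, against 11.6% of all genes. Dusp2, a nuclear MAP kinase phosphatase, was at 233 and 444 CPM (ratio 1.91, 1.62 to 2.25), Cd83, a surface marker of activation, at 57.6 and 98.5 (1.20 to 2.41), and Myc at 39.9 and 67.6. Cd69, an early activation marker that holds cells in tissue, was level at 391 and 381 CPM, a ratio of 0.972 (0.826 to 1.14). Il4i1, an amino acid oxidase, was lower, at 67.6 and 17.4 CPM, 3.88-fold (1.98 to 8.70). Irf4, a factor induced by receptor signals and needed for plasma cells, was at 24.9 and 69.6 CPM, a ratio of 2.79 (1.75 to 4.43), with its top GS-KO cell holding 11.1%.

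Glucocorticoid-induced genes had 6 of 15 measured members higher and 1 lower. Cxcr4, the receptor for the chemokine that holds B cells in marrow, was at 208 and 497 CPM (ratio 2.39, 2.03 to 2.80) and was found in 49.2% and 70.8% of cells. Tsc22d3, a direct target of the glucocorticoid receptor, was at 535 and 711 CPM, a ratio of 1.33. With genes of at least 50 UMIs only, 2 of 9 members were higher, against 4.56% of all genes, so most of the count came from genes with few UMIs.

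**Figure D5:**
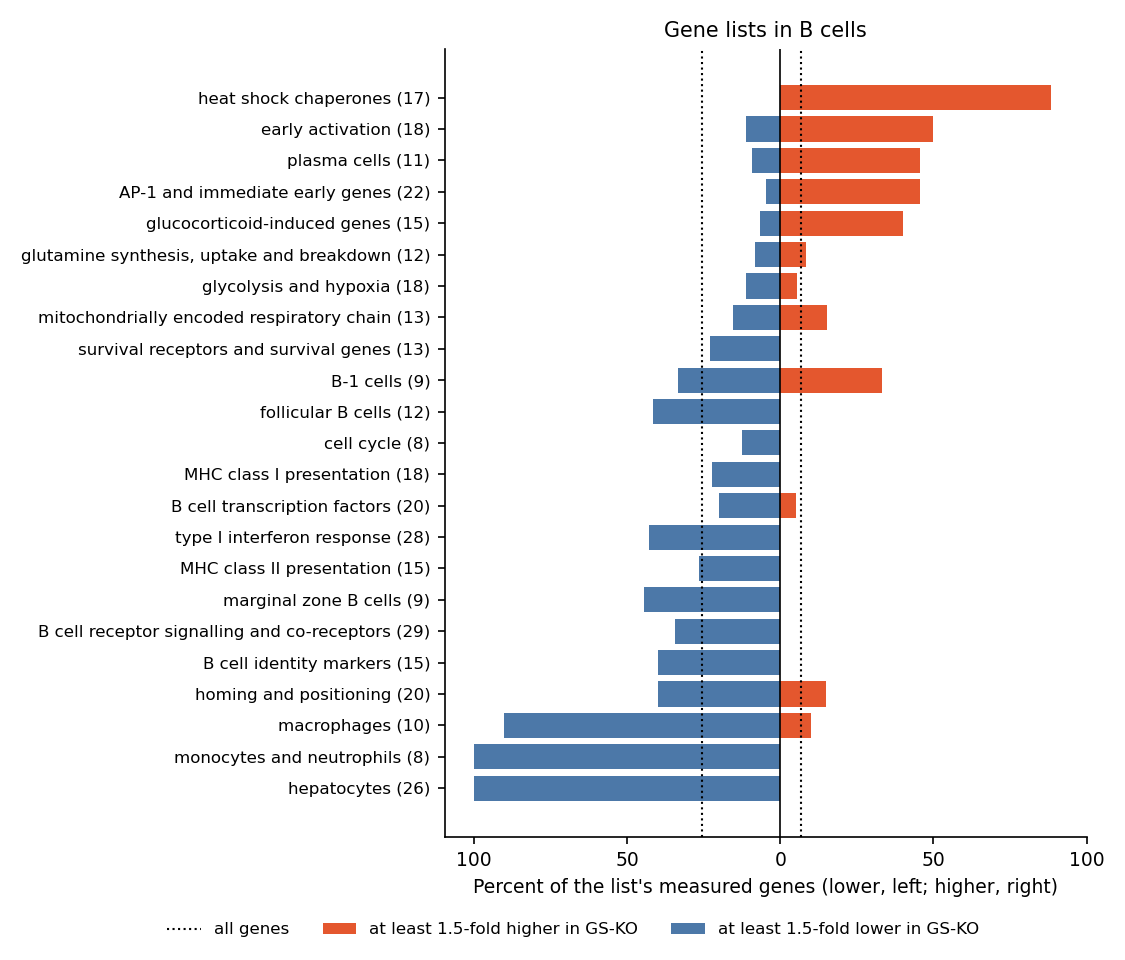
Share of each list's measured genes (numbers in brackets) at least 1.5-fold higher (orange, right) or lower (blue, left) in GS-KO than in control B cells, for lists with at least 8 measured genes, ordered by median log2 ratio. Dotted lines mark the shares among all genes, 6.8% and 25.5%; heat shock genes reach 15 of 17, and hepatocyte genes, 7 of which the rule limited, 26 of 26 lower.

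Interferon response genes, which cells switch on to resist viruses through dedicated transcription factors, were lower in part. Of 28 measured members 12 (0 higher) were at least 1.5-fold lower against 25.5% of all genes, with a median log2 ratio of -0.33, a difference of -0.13 from the median gene. Ifi27l2a, a mitochondrial interferon-induced protein, was at 621 CPM in control (585 to 658) and 265 CPM in GS-KO cells (222 to 313), 2.34-fold lower (1.96 to 2.82), and was found in 60.3% and 33.3% of cells. Bst2, which tethers budding virus, was at 70.3 and 27.0 CPM. Bst2 was named after its values were seen, as were the 5 with a ratio above 1, Isg15, Ifi203, Ifi209, Parp14 and Slfn8, with Ifi203 at 154 and 199 CPM. At 1000 UMIs per cell 2 of 14 measured members were lower, a share below the 25.3% of all genes in that setting. With at least 50 UMIs 6 of 16 were lower, against 19.1% of all genes. T cells had 16 of 37 lower against 29.3% of 7355 genes, with Ifi27l2a at 818 and 435 CPM.

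Interferon factors bind repeats of GAAA. A pair of GAAA with any 2 bases between them, searched on both strands in the same window, was in 1.59% of all promoters and in 17 of 34 list genes with an entry. As above, promoters and genes are unlike units. Bst2 (chr8:71537473-71537622, minus) and Phf11b (chr14:59341331-59341480, minus) are shown as members with lower values, and Ifi203 (chr1:173942493-173942642, minus) as one with the match but a ratio above 1. Capitals mark the matches, and in Bst2 2 of them overlap.
Bst2: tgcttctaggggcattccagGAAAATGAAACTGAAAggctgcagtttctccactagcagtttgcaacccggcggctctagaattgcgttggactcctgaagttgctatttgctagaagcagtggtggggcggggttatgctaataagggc
Phf11b: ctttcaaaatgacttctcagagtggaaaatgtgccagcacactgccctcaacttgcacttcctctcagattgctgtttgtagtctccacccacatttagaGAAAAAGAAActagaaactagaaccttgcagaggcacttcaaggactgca
Ifi203: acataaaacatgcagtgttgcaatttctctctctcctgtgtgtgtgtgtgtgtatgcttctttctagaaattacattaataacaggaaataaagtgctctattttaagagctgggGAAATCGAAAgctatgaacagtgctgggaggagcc
Phf11b was at 50.9 and 29.0 CPM. Of the measured members with a match 4 of 11 were at least 1.5-fold lower, and of those with a promoter but no match 3 of 11. The other 6 measured members, Ifi27l2a among them, had no promoter entry and were not searched, and 5 of them were lower.

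B cell identity genes were lower in part. Without Cd79a, Cd79b and Ms4a1, which the rule used, 5 of 12 members passed 1.5-fold lower, or 4 after centring, with 0 higher, and the median log2 ratio was -0.49. Levels of the rule's own genes are a description: Ms4a1 was at 1198 and 781 CPM, Cd79a at 3469 and 2629.5. Bank1, a receptor adaptor, was at 538 and 278 CPM (1.93-fold lower, 1.62 to 2.32), and Cd22, an inhibitory co-receptor, at 117 and 58.0. Fcer2a was at 389 and 222 CPM (1.75-fold lower, 1.44 to 2.15). Ighd was level at 1498 and 1486 CPM, and Fcmr, the IgM receptor, at 734 and 653. Averaged over cells instead of summed, 3 of 15 members, rule genes included, were lower, a share below that of all genes lower under this averaging (24.3%).

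Genes of receptor signalling had 10 of 29 members lower, against 25.5% of all genes, and 0 higher. After centring 7 were lower, against 17.4% of all genes. Cd79a and Cd79b are members and were not among the lower ones. Among the kinases Lyn was at 213 and 245 CPM, Btk at 76.4 and 104 and Syk at 242 and 195, none past 1.5-fold. Pik3ap1, an adaptor for PI3 kinase, was at 43.7 and 17.4 CPM (2.52-fold lower, 1.26 to 5.70), and Ptprc, the CD45 phosphatase, at 455 and 261 (1.74-fold lower, 1.45 to 2.11). Among 20 transcription factors 4 were lower, a share below the 25.5% of all genes, or 1 after centring, and 1, Irf4, higher. Pax5 was at 256 and 178 CPM and Foxo1 at 82.5 and 46.4.

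Homing genes were mixed, with 3 of 20 higher and 8 lower, and after centring on the median gene 6 higher and 4 lower, so the balance turned with the scale. Cxcr4, Cd44 and Rgs2, a brake on G protein signals, were higher, Rgs2 at 73.1 and 193 CPM, and Ccr7, which guides cells to lymph nodes, was at 186 and 267 (1.17 to 1.75). Ltb, a cytokine that B cells use to build lymphoid tissue, was at 1499 and 964 CPM (1.56-fold lower, 1.41 to 1.71). Of the survival genes 3 of 13 were lower, no larger a share than the 25.5% of all genes. Tnfrsf13b, the TACI receptor, was at 188 and 104 CPM, and Tnfrsf13c, the BAFF receptor, at 292 and 319. Tnfrsf17, the BCMA receptor of plasma cells, was among the 3, but all 24 of its control UMIs lay in 1 plasma cell, and averaged over cells its log2 ratio was 0.29 in place of -1.68. Of transitional genes 4 of 5 were lower, or 2 after centring, Cd24a at 176 and 83.1 CPM.

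Antigen presentation genes differed among themselves. MHC class II had 0 of 15 members higher and 4 lower, near the 25.5% of all genes, and the sum was 29212 CPM in control and 31044 CPM in GS-KO cells. Cd74, the invariant chain, was at 16368 and 18010.5 CPM (ratio 1.10, 1.07 to 1.13), and H2-Aa at 6229 and 7842 (1.26, 1.21 to 1.31). H2-Ab1, its partner chain, was at 3252 and 2577 CPM (0.792, 0.746 to 0.841). Rfx5, a factor that activates these genes, had 34 UMIs in control and 0 in GS-KO B cells, at least 3.25-fold lower against 3 counts over the group. MHC class I had 4 of 18 lower and 0 higher, near the 25.5% of all genes. Tap1, a peptide transporter, was at 49.3 and 19.3 CPM, and H2-D1 at 3899 and 3306.

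Glul itself was low in B cells. It was at 72.5 CPM (131 UMIs, 21.4% of cells) in control and 29.0 CPM (15 UMIs, 10.8%) in GS-KO cells, 2.50-fold lower (1.46 to 4.60). A 3′ count may lie outside the part that Cre removes, which is not given in the sources used here. Of 12 measured genes of glutamine use 1 was higher and 1, Glul, lower. Slc38a2, a glutamine transporter, was at 152 and 301 CPM (ratio 1.99, 1.62 to 2.43). Glycolysis genes had 1 of 18 higher and 2 lower, with a median log2 ratio of -0.0019.

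Hepatocyte and macrophage RNA was higher in control B cells. The rule limited 7 hepatocyte genes and 3 C1q genes, and values here leave them out unless said. The other hepatocyte genes summed to 739.7 CPM in control and 79.2 CPM in GS-KO B cells, with 19 of 19 measured genes lower and 7 of 21 at 0 in the GS-KO cells. With the rule's genes included, hepatocyte RNA had a median of 0.165% of a control cell's UMIs and 0 of a GS-KO cell's. Glul is abundant in some hepatocytes, and the part of free RNA in its B cell level was not tested. The other macrophage genes summed to 2093.5 and 1034 CPM with 6 of 7 measured genes lower, Apoe at 1200.4 and 522 CPM. Plasmacytoid dendritic cell genes summed to 252 and 253 CPM, and red blood cell genes to 7.75 and 21.3 CPM on 14 and 11 UMIs. With hepatocyte genes held under 0.5% and C1q genes under 0.1%, 15 of 17 heat shock genes were higher. This limit left the GS-KO share at 18.1% of kept barcodes and took the control share from 14.1% to 13.3%. Most control cells thus stayed in with their hepatocyte RNA, and its part in the heat shock values was not tested.

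Some B cells carried myeloid RNA in amounts above the rest. With at least 5 UMIs of Lyz2, S100a8, S100a9, Tyrobp and Fcer1g together there were 16 control cells (3.46%) and 2 GS-KO cells (1.67%), with median depths of 6172 and 12799.5 UMIs against 3667 and 3823 in the rest. They held 86.3% and 93.1% of these UMIs, and 1 control cell held 865. Without them heat shock had 13 of 17 members higher, interferon 13 of 26 lower and AP-1 9 of 20 higher. Scrublet, a doublet caller, marked 1 control and 0 GS-KO B cells. Whether these cells are doublets was not tested.

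Within the B cells 2 sets were looked at after their values were seen, leaving out plasma cells and cells with myeloid RNA. Cells with at least 5 UMIs of Vpreb3, which binds new immunoglobulin chains in immature cells, numbered 40 (control) and 7 (GS-KO). In the control they held Cd24a, high on immature cells, at 599.9 CPM (484 to 736) against 122 (105 to 141) in the other 405 cells, Ms4a1 at 2198 against 1166, and Iglc1 at 965 against 369. Cd93, also a marker of immature cells, had 0 UMIs in the 40 and in the 405 control cells. Ighd was at 1402 against 1591 CPM. In the GS-KO library Cd24a was at 282 against 77.99 CPM and Iglc1 at 539 against 424. Cd93 had 1 UMI there against 2, and Ighd was at 975 against 1781.5 CPM. Cells with at least 8 UMIs of Crip1 and Vim numbered 32 and 9, and held Fcer2a at 252 against 426 CPM (control) and 162 against 267 (GS-KO), and Ighd at 1267 against 1600 and 954 against 1805. In the GS-KO library the Iglc1 interval of the Vpreb3 set and the Fcer2a interval of the Crip1 and Vim set overlapped those of the other cells. The control Ighd interval of the Vpreb3 set (1221 to 1603) also overlapped that of the other cells (1528 to 1656). No test was made.

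Genes outside the lists were named by size. Higher were Ppp1r21, an endosome protein (18.8 and 77.3 CPM, ratio 4.11, 2.53 to 6.69), Cebpb, a stress-responsive factor (103 and 286, 2.78, with 36.5% of GS-KO UMIs in 1 cell) and Rbm3, a cold-induced RNA binding protein (217 and 524, 2.41, in 49.9% and 84.2% of cells). Lower were Gm42418, which overlaps ribosomal RNA sequence (24963 and 8491 CPM, 2.94-fold, 2.85 to 3.03), with Lars2, a mitochondrial tRNA ligase (529 and 247). Zbtb8os, Dnlz, Izumo4 and Snrnp25 had GS-KO levels of 13.5, 7.73, 3.86 and 46.4 CPM against 63.1, 39.3, 27.1 and 125, and the 2 GS-KO UMIs of Izumo4 lay in different cells. Calr, a chaperone of glycoproteins, was at 251 and 112 CPM and Ifi27 at 86.4 and 27.0. Of Gm10260 and Gm26917, predicted genes, the levels were 524 and 77.0 CPM in control and 226 and 23.2 in GS-KO cells, and with the UMIs of the highest cell of each library left out and the totals kept the Gm26917 ratio of 0.301 was 0.616.

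Short ribosomal protein genes were higher in both B and T cells. Among 10 with a transcript under 500 bases in GENCODE M21, 5 were at least 1.5-fold higher in B cells, with a median log2 ratio of 0.60, and 7 in T cells with a median of 0.64. The 28 genes of 700 to 1000 bases had medians of 0.0037 and -0.029. Rps28 was at 1455 and 3391 CPM in B cells (ratio 2.33, 2.19 to 2.48) and had a T cell ratio of 2.50. Across the 81 ribosomal protein genes, which share libraries and are not independent, the log2 ratio and length had a Spearman rho of -0.33 in B cells and -0.34 in T cells. Across 4317 other genes in B cells rho was 0.021, and the 27 of these under 500 bases had a median log2 ratio of 0.13 with 4 higher and 4 lower. Heat shock genes had transcripts of 774 to 9479 bases, median 2825. The part of transcript length in the group difference was not tested.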

How the data were processed

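Droplet 3′ UMI counts of 32285 genes were deposited for 2 libraries, 1 mouse each; per the file headers the matrix software version was 3.1.0, and per the submitters' processing notes the authors used Cell Ranger with mm10. Barcodes with at least 500 UMIs, 200 genes and at most 20% mitochondrial UMIs were kept. B cell counts were summed per library and scaled to CPM. Poisson intervals for CPM, conditional binomial intervals for ratios and Clopper-Pearson intervals for shares, at 95%, cover counting error only and not differences between mice. No test of the groups was made.

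The B cell rule, gene lists and subset comparisons were chosen with earlier results of these data known. List members had at least 20 UMIs over both libraries, and log2 ratios used a prior count of 0.5. Named genes were the markers, Glul, the leading members of each list, and the 12 higher and 12 lower genes with at least 50 UMIs and a 2-fold ratio whose interval lay farthest from 1; others were named after their values were seen. Mitochondrial, ribosomal, haemoglobin, immunoglobulin, X-inactivation, Y-linked and hepatocyte genes were left out of that choice. So were genes whose CPM over all other kept barcodes of either library was more than 5 times that in its B cells. Doublets called by Scrublet (scanpy 1.11.5, expected share 5%), 24 control and 7 GS-KO barcodes, were kept. Shares of cells with a UMI are without thinning unless said, and thinning to 1000 UMIs per cell was run beside them. Sums and intervals were computed with Python 3.11.15, numpy 2.4.6 and scipy 1.17.1 and checked on simulated data. Alternatives changed the cell limits, the total, the count minimum and the averaging. Some genes that the naming rule selects are not reported here.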

Additional observations from a re-analysis of the deposited data

How the results depend on the processing

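No paired analysis was possible because each group is 1 mouse. Heat shock chaperones had 13 to 17 members higher under every alternative run. Other counts moved by over 1.5 times, and beyond changes in the genes measured the cause was not tested. With mitochondrial, ribosomal, haemoglobin, immunoglobulin and hepatocyte genes out of the total 780 genes were at least 1.5-fold higher, and centred on the median gene 889. With a minimum of 50 UMIs 209 of 4586 genes (4.56%) were higher and 875 (19.1%) lower, and with 5 UMIs 1071 and 3264 of 10283. Thinned to 1000 UMIs per cell 838 of 3309 genes (25.3%) were lower. Thinning gave 3 of 9 early activation genes higher, and lower 2 of 14 interferon, 4 of 14 homing, 2 of 13 MHC class II, 13 of 13 hepatocyte and 5 of 5 macrophage genes. The 50 UMI minimum gave 2 of 9 glucocorticoid-induced genes higher, 6 of 16 interferon and 17 of 17 hepatocyte genes lower. Asking for 5 UMIs of the B cell genes gave 3 of 13 glucocorticoid-induced genes higher. Averaging over cells gave 3 of 15 identity genes lower and a log2 ratio of 0.29 for Tnfrsf17, against -1.68 in the sum. Homing genes lower were 4 of 20 with the reduced total, 4 after centring and 5 without the cells of at least 30% immunoglobulin. Asking for 10 light chain UMIs and 90% of 1 chain called 14.5% of control and 25.8% of GS-KO cells kappa. The alternatives leaving out immunoglobulin-rich or myeloid-RNA cells were chosen after seeing the data. Of 4158 gene values under alternatives, 3935 stayed within the counting interval, 222 moved and 1 reversed. Depth limits the subsets: with 120 GS-KO cells a count of 0 allows, by a floor of 3 counts, 2.5% of cells.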
